A study of Homo sapiens with 24 samples.

Results

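Gene expression 8 h after the last dose of IK-595 was compared with that 4 h after it, tumor against tumor, in 8 of the 24 tumors of the series (4 at each time). AsPC-1, a cell line from a human pancreatic ductal adenocarcinoma, had been grown as xenografts in mice, and RNA with poly(A) tails was sequenced from 1 tumor per animal. Both groups received IK-595, named in the labels as a molecular glue of MEK and RAF, by mouth at 6 mg/kg in 3 doses given every other day, and differed in the hours between the last dose and collection. Vehicle tumors (5% DMSO, 95% PEG400, in the same schedule) were taken at 2 h, and IK-595 tumors were also taken at 2, 24 and 48 h. Each of the 6 groups had 4 animals. The model is a single cell line in a mouse host, and a mouse read can count toward a human gene of like sequence. The clock time of collection is not given in the sources used here, so hours since dosing and time of day cannot be told apart.

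RAS proteins pass growth signals to RAF kinases, which activate the kinases MEK and then ERK. Active ERK raises transcription of growth genes and, as negative feedback, of its own inhibitors (DUSP phosphatases, Sprouty proteins), so the mRNAs of these inhibitors are widely read as a measure of ERK output. Sustained loss of ERK signaling is known to lower cyclin D1, MYC and the synthetic programs of growing cells.

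Depth was 10.52 to 20.6 M counts per tumor at 4 h and 11.26 to 14.86 M at 8 h. Several measures of the libraries moved with the groups compared. Mitochondrial genes took 7.36% to 15.4% of counts at 4 h and 18.27% to 23.42% at 8 h. MALAT1, a nuclear long noncoding RNA, stood at 2750 to 7382 CPM (counts scaled to a common library total, the usual measure of level per library) at 4 h and at 9830 to 18800 CPM at 8 h. A tumor's deviation from the mean of all tumors correlated with the GC content of the transcript at r = -0.21 to -0.12 across genes at 4 h and at 0.13 to 0.17 at 8 h. In these 3 measures the 8 h tumors did not overlap the 4 h tumors. The 4 vehicle tumors (r = -0.20 to -0.14) lay near the 4 h tumors, and tumors 2 to 4 of the 2 h group (0.14 to 0.23) near the 8 h tumors. The part of RNA composition in the results below was not tested. Several lists, though not all, are therefore also given with their count after a trend on GC content and transcript length had been removed from every tumor. Among the 4 h tumors, number 2 stood apart. Its 19 fibroblast and pericyte markers summed to 36113 CPM against 1176 to 3578 CPM in the other 4 h tumors and 1657 to 6151 CPM at 8 h. Tumor epithelial markers summed to 11300 to 13720 CPM at 4 h and 9192 to 12277 CPM at 8 h, so keratins and other epithelial genes were present at both times.

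**Figure D1:**
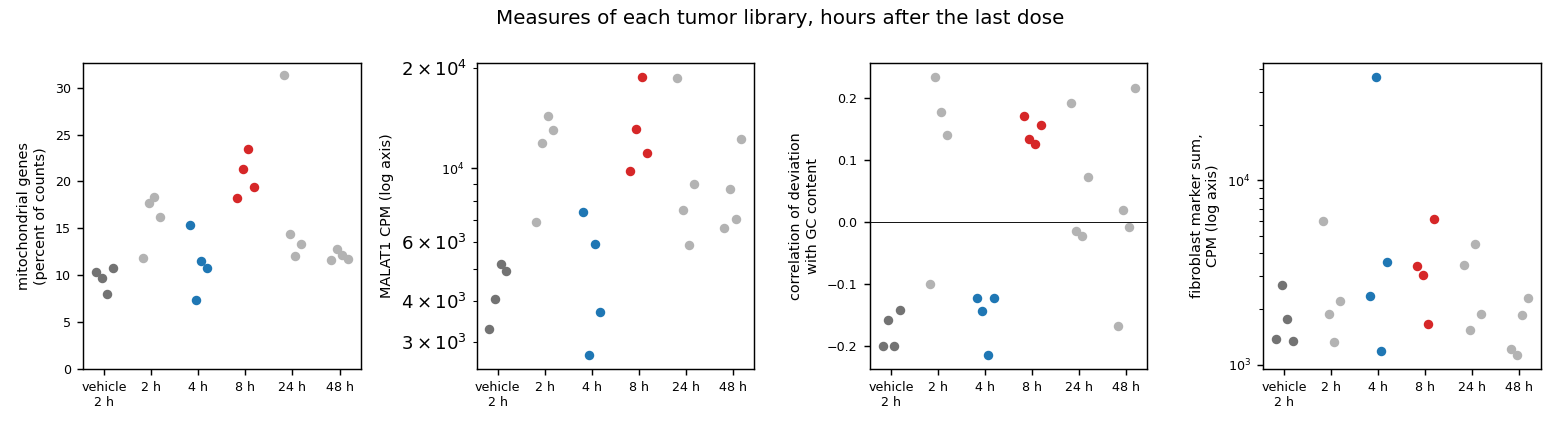
Each point is 1 tumor, with the 6 groups along the x axis (blue, 4 h; red, 8 h; dark grey, vehicle). From left to right the panels give the share of counts in mitochondrial genes (percent), MALAT1 (CPM, log axis), the correlation of a tumor's deviation with GC content across genes, and the summed fibroblast markers (CPM, log axis). The red points lie above the blue ones in the first 3 panels, and 1 blue point is far above the rest in the last.

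Of 18242 genes tested, 2114 were higher at 8 h than at 4 h (11.6% of those tested) and 2834 were lower (15.5%), at an adjusted p under 0.05. Of these, 689 had at least doubled and 529 had at least halved. The 4 tumors of each time did not overlap in 4987 genes, 27.3% of those tested. Called genes named below from the lists mostly had the smallest adjusted p of their list and direction. Where their groups do not overlap, this follows largely from that choice and is not separate support. With any 1 of the 8 tumors left out in turn, 917 of the higher and 1481 of the lower genes kept their call each time. The number of higher genes was 1123 without 8 h tumor 3 and 1340 without 4 h tumor 4. After removal of the GC and length trend, 1168 of the higher and 1701 of the lower genes were still called in the same direction. The share of calls that were higher was 42.7%. It was 56.8% with upper-quartile scaling and 16.8% on deposited TPM as log2(TPM + 1). On that TPM scale the median of all tested genes lay at -0.20 instead of -0.01 (log2). Of the 18242 genes, 2778 were higher and 2112 lower with upper-quartile scaling, and 807 and 4002 on log2(TPM + 1). With the trend removed the totals were 1444 and 2057. List counts given below under these settings are to be read against these totals. Against vehicle, 15.1% of tested genes were called at 4 h and 44.3% at 8 h. Those comparisons share tumors with the comparison described here and are given as values beside it.

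ERK output was low at both times, and its genes moved in both directions between them. The mean log2 CPM over 10 ERK output genes was 2.96 ± 0.42 (SD, n = 4) at 4 h and 2.74 ± 0.52 at 8 h, against 6.52 ± 0.04 in vehicle tumors. The difference was -0.22, whereas the median fold change of the 10 genes was 0.13. Each time held 1 tumor with a high score, 4 h tumor 2 (3.57) and 8 h tumor 1 (3.51). Without 4 h tumor 2 the difference was -0.022, and without 8 h tumor 1 it was -0.48. A list of 15 tested ERK feedback genes, which shares members with it, had a mean of 2.89 ± 0.40 at 4 h and 3.08 ± 0.32 at 8 h. Of these 15, 3 were higher (20%) and 1 was lower (6.7%), against 11.6% and 15.5% of all tested genes. With the GC and length trend removed they were 4 and 0, and on log2(TPM + 1) they were 1 and 2. Without 4 h tumor 2 the counts were 6 and 0, and without 8 h tumor 1 they were 3 and 1. In bulk RNA, fewer cells that express a gene and less of its mRNA per cell cannot be told apart. Of the 10 genes, SPRY4 was higher, and CCND1, ETV4 and EPHA4 were lower. On log2(TPM + 1), 0 of the 10 were higher and 3 were lower. SPRY4 (ENSG00000187678.10, chr5:142310427-142326455, minus strand, GRCh38 here and below), a Sprouty inhibitor of signaling from receptor kinases to ERK, stood at 1.65, 2.39, 1.07 and 1.29 CPM in tumors 1 to 4 at 4 h and at 8.29, 2.34, 4.53 and 1.73 CPM in tumors 1 to 4 at 8 h. The groups overlapped, since 8 h tumors 2 and 4 lay inside the 4 h range, while the vehicle mean was 159 ± 9.54 CPM (SD, n = 4). The log2 fold change of SPRY4 was 1.48 ± 0.37 (SE; adjusted p = 0.0067), and on log2(TPM + 1) it was 0.31 with an adjusted p of 0.251. Tumor values below are given in the order of tumors 1 to 4, and fold changes are log2 values at 8 h minus 4 h ± SE from edgeR.

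The phosphatases DUSP4 and DUSP6, which remove the activating phosphates of ERK, did not pass the test. DUSP6 stood at 3.24, 9.76, 3.43 and 2.84 CPM at 4 h and 12.9, 5.88, 5.29 and 4.58 CPM at 8 h (0.64 ± 0.34, adjusted p = 0.165), and 4 h tumor 2 was the high one of its group. DUSP4 gave 0.63 ± 0.33 (adjusted p = 0.16). Without 4 h tumor 2, DUSP4, DUSP6 and SPRY2 passed the test as higher at 8 h, with fold changes of 1.02, 1.18 and 0.54 and adjusted p of 0.0293, 0.00945 and 0.0410. SPRY2 itself, another Sprouty gene, gave 0.26 ± 0.21 (adjusted p = 0.356) over the 8 tumors. EPHA2, a receptor kinase for ephrins, was at 14.9, 16.5, 13.8 and 16.95 CPM at 4 h and 36.2, 20.2, 19.8 and 19.4 CPM at 8 h. Its groups did not overlap, 8 h tumor 1 was far above the others, and the fold change of 0.63 ± 0.27 missed the threshold (adjusted p = 0.0862). PHLDA1, a gene induced by ERK signaling, differed by -0.01 ± 0.22 (adjusted p = 0.984).

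The transcription factor gene ETV4 (ENSG00000175832.13, chr17:43527844-43579620, minus strand) was the member with the clearest fall. It stood at 17.2, 15.4, 15.8 and 18.2 CPM at 4 h and at 10.5, 4.83, 6.06 and 5.53 CPM at 8 h, against 44.4 ± 6.56 CPM in vehicle and 48.8 ± 6.804 CPM at 24 h. All 4 tumors at 8 h lay below all 4 at 4 h, and ETV4 fell by 1.31 ± 0.19 (adjusted p = 0.000724). Its relative ETV5 gave -0.95 ± 0.36 (adjusted p = 0.0542), and it passed as lower without 8 h tumor 1 (-1.81, adjusted p = 0.00129) or without 4 h tumor 2 (-1.07, adjusted p = 0.0472). CCND1 (ENSG00000110092.4, chr11:69641087-69654474, plus strand), which encodes cyclin D1, was at 67.7, 68.1, 46.1 and 68.7 CPM at 4 h and 50.7, 24.7, 29.5 and 16.6 CPM at 8 h. Tumor 1 at 8 h lay inside the 4 h range and the other 3 below it, and CCND1 fell by 1.04 ± 0.23 (adjusted p = 0.00381). Relative to vehicle, CCND1 was at -2.08 ± 0.24 at 4 h and -3.12 ± 0.25 at 8 h. The ephrin receptor gene EPHA4 was at 1.23, 15.5, 0.834 and 1.77 CPM at 4 h, so its call (-2.82 ± 0.79, adjusted p = 0.0125) rested on tumor 2, and without that tumor the fold change was -0.94 with an adjusted p of 0.251.

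**Figure D2:**
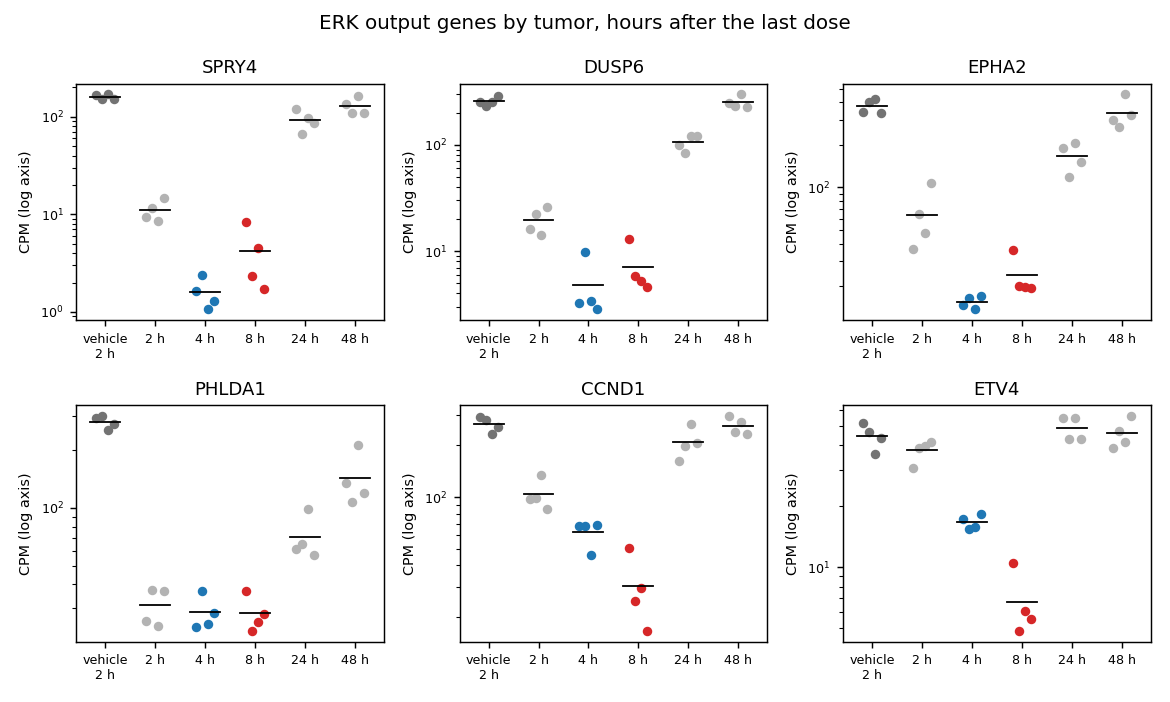
CPM of 6 ERK output genes (log axis) in each tumor, by group along the x axis (blue, 4 h; red, 8 h; dark grey, vehicle; light grey, the other IK-595 times), with a line at each group's mean. SPRY4 and DUSP6 have their lowest means at 4 h, CCND1 and ETV4 have theirs at 8 h, and the blue and red points of PHLDA1 overlap.

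The components of the RAS to ERK chain changed in both directions. Of 21 tested, 4 were higher (19%) and 8 were lower (38.1%), against 11.6% and 15.5% of all tested genes. The counts were 3 and 4 after removal of the GC and length trend, 6 and 6 with upper-quartile scaling and 0 and 11 on log2(TPM + 1). The 8 lower genes became 4 without 4 h tumor 2 and 5 without 8 h tumor 2, and the 4 higher ones became 2 without 4 h tumor 3, 4 h tumor 4 or 8 h tumor 3. PTPN11, the phosphatase SHP2 that couples receptors to RAS, was at 169.8, 193, 214 and 227 CPM at 4 h and 104, 90.9, 81 and 75.4 CPM at 8 h and fell by 1.19 ± 0.19 (adjusted p = 0.00096). The groups stood well apart. NF1, which turns RAS off, fell by 0.65 ± 0.13 (adjusted p = 0.00231). NRAS, one of the RAS genes, was also lower (-0.73) and kept its call with each tumor left out. PEBP1, which binds RAF, rose by 0.54 ± 0.15 (adjusted p = 0.0126), although with the trend removed it was at 0.37 with an adjusted p of 0.0627. MAPK3 (ERK1) did not pass (-0.11 ± 0.17, adjusted p = 0.639).

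Among 26 receptor kinases and their adaptors, 2 were higher and 4 were lower, 0 and 2 without 4 h tumor 2, 4 h tumor 4 or 8 h tumor 3. These shares (7.7% and 15.4%) were at or under those of all tested genes, and on log2(TPM + 1) the counts were 0 and 8. MET, the receptor for hepatocyte growth factor, was at 263, 252, 331 and 342 CPM at 4 h and 164, 119.9, 95.1 and 100.4 CPM at 8 h, against 629 ± 41.4 CPM in vehicle. Every 8 h tumor lay below every 4 h tumor, and MET fell by 1.31 ± 0.23 (adjusted p = 0.00126). The adaptor gene FRS2 fell by 0.77 ± 0.16 (adjusted p = 0.00244). ERBB3, the kinase-impaired partner of ERBB2, was at 459, 271, 621 and 456 CPM at 4 h and 493, 511, 618 and 499 CPM at 8 h, values that overlapped (0.23 ± 0.19, adjusted p = 0.386).

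Immediate early genes are induced by growth and stress signals without new protein synthesis. Of 31 tested, 8 were higher at 8 h (25.8%, against 11.6% of all tested genes) and none was lower. They were IER5, IER3, KLF2, IER2, JUND, MAFF, KLF6 and ZFP36, and with the GC and length trend removed the counts were 3 and 1, on log2(TPM + 1) 1 and 1. IER3 was at 28.8, 25.7, 22.8 and 20.2 CPM at 4 h and 58.6, 36.4, 52.9 and 48.5 CPM at 8 h. The groups did not overlap, and IER3 rose by 1.01 ± 0.23 (adjusted p = 0.00352), to -1.63 ± 0.23 relative to vehicle. IER5 rose by 0.78 ± 0.15 (adjusted p = 0.00177). The classical members FOS (0.15), EGR1 (0.00) and FOSL1 (0.09) did not pass, and RHOB, which encodes a small GTPase, stood at -0.01 ± 0.17 (adjusted p = 0.964).

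NF-kB is a family of transcription factors activated by inflammatory signals. Of 20 of its targets and regulators, 5 were higher (25%, against 11.6% of all tested genes) and none was lower. The counts were 3 and 0 with the trend removed and 5 and 0 on log2(TPM + 1). TNFAIP2, an NF-kB target, was at 343, 289, 327 and 294 CPM at 4 h and 588, 513, 724 and 661 CPM at 8 h, a rise of 0.99 ± 0.16 (adjusted p = 0.00096). NFKB2, which encodes an NF-kB subunit, was at 66.9, 69.2, 56.6 and 63.3 CPM and then 104, 108, 111 and 104 CPM, a rise of 0.74 ± 0.12 (adjusted p = 0.00107). In neither gene did the groups overlap. In a separate list of 19 tested cytokine and chemokine genes, 3 were higher (15.8%) and 2 were lower (10.5%), with a median of -0.06. Among all tested genes these shares were 11.6% and 15.5%. LIF (0.67 ± 0.17) and IL18 (0.64 ± 0.15) were among the higher ones, with adjusted p of 0.00831 and 0.00405. LIF was still at -1.58 ± 0.18 relative to vehicle at 8 h. On log2(TPM + 1), LIF and IL18 were at 0.27 and 0.15, with adjusted p of 0.208 and 0.557.

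Some genes of the MYC partner network changed, and MYC did not pass the test. Of 13 MYC, MAX and MLX network genes, 6 were higher (46.2%) and 1 was lower (7.7%), against 11.6% and 15.5% of all tested genes. The counts were 4 and 0 with the trend removed or without 4 h tumor 2. Without 4 h tumor 4 or 8 h tumor 3, 3 were higher. MYC, the growth-promoting factor itself and named here after its value was seen, was at 7.97, 9.28, 5.28 and 7.67 CPM at 4 h and 8.23, 6.86, 3.55 and 6.05 CPM at 8 h, against 73.7 ± 8.696 CPM in vehicle. It did not pass between the times (-0.28 ± 0.27, adjusted p = 0.456) and lay at -3.30 ± 0.27 and -3.58 ± 0.28 relative to vehicle. MXD3, a MAX partner that represses transcription, rose from 25.3, 12.1, 17.7 and 18.7 CPM to 36.7, 39.3, 43.7 and 33.9 CPM (1.05 ± 0.23, adjusted p = 0.00358). MGA, a MAX partner of another kind, fell by 0.39 ± 0.12 (adjusted p = 0.0183), but its fold change was -0.08 with the trend removed (adjusted p = 0.627).

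The largest rises that held in every tumor left out were spread over unlike functions. BICDL2 (ENSG00000162069.16, chr16:3027682-3036926, minus strand), an adaptor of motor proteins, was at 11.6, 4.98, 8.52 and 5.69 CPM at 4 h and 34.8, 17.5, 79.1 and 21.5 CPM at 8 h, against 1.95 ± 1.05 CPM in vehicle and 22.4 ± 8.81 CPM at 2 h. MLXIPL (ENSG00000009950.16, chr7:73593194-73624543, minus strand), the glucose-responsive factor ChREBP of the MLX network, was at 55.1, 25.3, 42.8 and 28.2 CPM and then 125, 94.9, 268 and 95.1 CPM, with 55.3 ± 16.8 CPM at 2 h. In both genes 8 h tumor 3 was the highest and the groups did not overlap. BICDL2 rose by 2.30 ± 0.55 (adjusted p = 0.00577) and MLXIPL by 1.94 ± 0.43 (adjusted p = 0.00373). Relative to vehicle, MLXIPL was at 2.17 ± 0.44 at 4 h and 4.11 ± 0.47 at 8 h.

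The other 10 rises lay between 1.54 and 1.94. They were TNXB (the matrix protein tenascin X, 1.94), MAPK8IP1P2 (a pseudogene, whose reads may be shared with its parent, 1.92), TTLL6 (an enzyme that modifies tubulin, 1.90), AMN (a subunit of the intestinal vitamin B12 receptor, 1.66), CCDC146 (1.61), HSF4 (a heat shock factor, 1.61), RCN3 (a calcium-binding protein of the secretory route, 1.60), BIRC7 (an inhibitor of apoptosis, 1.60), GSDMB (a gasdermin, 1.56) and ANKRD36C (a member of a near-identical family, 1.54). AMN, for example, was at 30.6, 10.9, 27.1 and 21.8 CPM at 4 h and 67.1, 57.5, 115 and 48.3 CPM at 8 h. GSDMB was at 77.4, 55.5, 86.8 and 43.5 CPM and then 135, 118, 373 and 149.6 CPM, and its 2 h mean was 149 ± 45.2 CPM. In each of the 12 except TNXB, the highest of the 8 tumors was 8 h tumor 3.

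The 12 largest falls lay between -1.91 and -1.61. AKAP12 (ENSG00000131016.17, chr6:151239999-151358557, plus strand), a scaffold for protein kinase A, was at 152, 91.3, 207 and 203 CPM at 4 h and 58.2, 54.8, 24.2 and 36.5 CPM at 8 h, and fell by 1.91 ± 0.38 (adjusted p = 0.002). ITGA2 (ENSG00000164171.11, chr5:52989326-53094779, plus strand), an integrin that binds collagen, was at 40, 60.7, 95.2 and 60.6 CPM and then 21.8, 12.7, 20.8 and 13.5 CPM. ITGA2 fell by 1.89 ± 0.36 (adjusted p = 0.0018) and stood at -4.04 ± 0.39 relative to vehicle. SLC26A3, an intestinal chloride and bicarbonate exchanger, was at 55.2, 35.03, 95.3 and 50.5 CPM at 4 h and 15.02, 20.1, 19.4 and 11.9 CPM at 8 h, with a vehicle mean of 9.94 ± 4.85 CPM, so the 4 h mean lay above both. ABHD2, a lipid hydrolase, was at 283, 364, 487 and 428 CPM at 4 h and 150.2, 127, 85.04 and 94.6 CPM at 8 h (-1.77 ± 0.30, adjusted p = 0.00122).

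The remaining falls were DTL (which directs replication proteins to a ubiquitin ligase, -1.77), NTSR1 (the neurotensin receptor, -1.73), EMP1 (a membrane protein of epithelia, -1.70), ADAM9 (a membrane protease, -1.70), CALU (a calcium-binding protein of the secretory route, -1.68), PPIL1 (a spliceosomal isomerase, -1.66), PRKDC (the catalytic subunit of DNA-dependent protein kinase, -1.66) and IPO11 (a nuclear import receptor, -1.61). PRKDC was at 153, 166, 187 and 221 CPM at 4 h and 75.2, 57.5, 54.8 and 42.5 CPM at 8 h. DTL was at 25.4, 21.1, 21.1 and 35.03 CPM and then 9.404, 10.7, 1.46 and 8.64 CPM, with 8 h tumor 3 far below the rest. PRKDC had means of 230 CPM in vehicle and 81.6 CPM at 2 h. The 2 h means of ADAM9, IPO11 and DTL (221, 13.6 and 7.25 CPM) also lay below their 4 h means (490, 28.7 and 25.6 CPM). Among the largest falls, only ITGA2 and NTSR1 had higher means at 2 h (86.5 and 75.8 CPM) than at 4 h (64.1 and 56.7 CPM). Whether RNA composition had a part in these levels was not tested. All 24 of the largest changes came from a rule that asked for a call in each fit without 1 tumor, and all were also called with the GC and length trend removed. Freedom from overlap was part of the rule that chose them and is not a result.

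**Figure D3:**
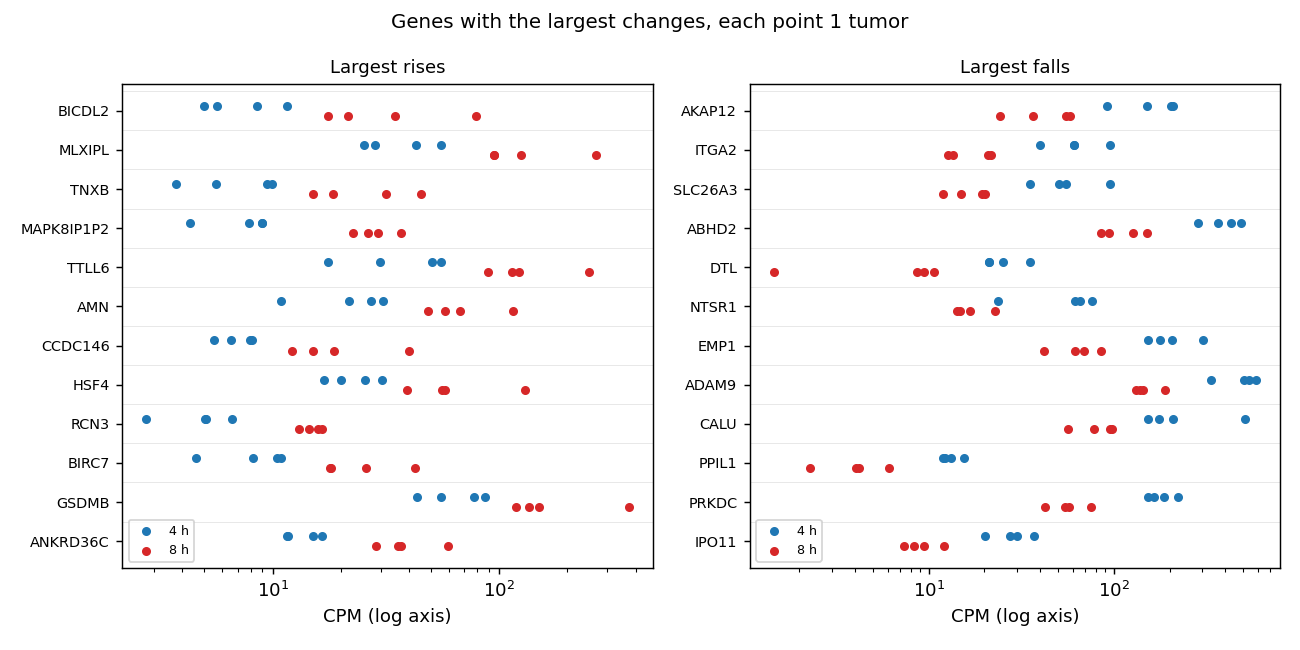
CPM (log axis) of the 12 largest rises (left) and the 12 largest falls (right), 1 point per tumor (blue, 4 h; red, 8 h). The groups do not overlap in any of these genes, as the rule that chose them required, and the spread among 8 h tumors is widest in BICDL2 and DTL.

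Genes that build ribosomes, nucleotides and charged tRNAs were lower at 8 h as groups. Of 30 MYC-linked genes of ribosome biogenesis, 18 were lower and none was higher (60%, against 15.5% of all tested genes). The median over these 30 was -0.64, against -0.01 over all genes tested. NOLC1 (ENSG00000166197.17, chr10:102152176-102163871, plus strand), a nucleolar phosphoprotein, was at 59.1, 67.4, 54.7 and 77.3 CPM at 4 h and 31.7, 20.5, 22.01 and 14.9 CPM at 8 h. The lowest 4 h tumor was well above the highest 8 h tumor, and NOLC1 fell by 1.53 ± 0.22 (adjusted p = 0.000724). DKC1, the pseudouridine synthase dyskerin, was at 58.1, 71.7, 56.9 and 63.5 CPM at 4 h and 38.3, 30.1, 33.99 and 27.8 CPM at 8 h and fell by 0.94 ± 0.16 (adjusted p = 0.00107). NPM1 (-0.82) and NCL (-0.81), abundant nucleolar proteins, were lower too, and NOP58, a core protein of small nucleolar ribonucleoproteins, gave -0.43 ± 0.17 (adjusted p = 0.0659). The list's means in log2 CPM were 5.77 (vehicle), 5.03 (2 h), 4.94 (4 h), 4.30 (8 h) and 5.21 (24 h). The count was 19 with the GC and length trend removed, 14 with upper-quartile scaling and 20 on log2(TPM + 1), and it ranged from 14 to 20 with 1 tumor left out.

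Of 24 enzymes of purine and pyrimidine synthesis, 14 were lower (58.3%, against 15.5% of all tested genes) and none was higher. Their median was -0.71. GART (ENSG00000159131.17, chr21:33503931-33543491, minus strand), which catalyzes several steps of purine synthesis, was at 40.8, 41.3, 44.5 and 49.5 CPM at 4 h and 22.9, 23.2, 18.4 and 14.4 CPM at 8 h, and fell by 1.16 ± 0.17 (adjusted p = 0.000759) without overlap. MTHFD2, which supplies mitochondrial one-carbon units, was at 27.4, 29.4, 29.1 and 28.6 CPM at 4 h and 21.7, 14.1, 12.3 and 13.9 CPM at 8 h and fell by 0.88 ± 0.17 (adjusted p = 0.00175). Purine enzymes PPAT (-0.72), PAICS (-0.74) and GMPS (-0.62) and the pyrimidine enzymes CAD (-0.84) and UMPS (-0.70) were lower. The list's means in log2 CPM were 5.56 (vehicle), 4.87 (2 h), 5.21 (4 h), 4.58 (8 h) and 4.80 (24 h), so the list was also lower at 2 h than at 4 h. The count was 14 with the trend removed, with upper-quartile scaling and on log2(TPM + 1), and 12 to 16 with 1 tumor left out.

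The aminoacyl-tRNA synthetases, which load amino acids onto tRNAs, had the largest share of lower genes among all lists. Of 20, 15 were lower (75%, against 15.5% of all tested genes), none was higher, and the median was -0.60. EPRS1 (ENSG00000136628.18, chr1:219968601-220046658, minus strand), the synthetase for glutamate and proline, was at 183, 238, 213 and 236 CPM at 4 h and 127, 132, 97.1 and 115 CPM at 8 h. EPRS1 fell by 0.89 ± 0.14 (adjusted p = 0.000821). FARSB, a subunit for phenylalanine, fell by 0.95 ± 0.15 (adjusted p = 0.000946). QARS1, for glutamine, did not pass (-0.09 ± 0.10, adjusted p = 0.506). The list's means in log2 CPM were 6.73 (vehicle), 6.28 (2 h), 6.43 (4 h), 5.87 (8 h) and 6.19 (24 h). The count was 15 with the trend removed, 13 with upper-quartile scaling, 17 on log2(TPM + 1) and 13 to 16 with 1 tumor left out.

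**Figure D4:**
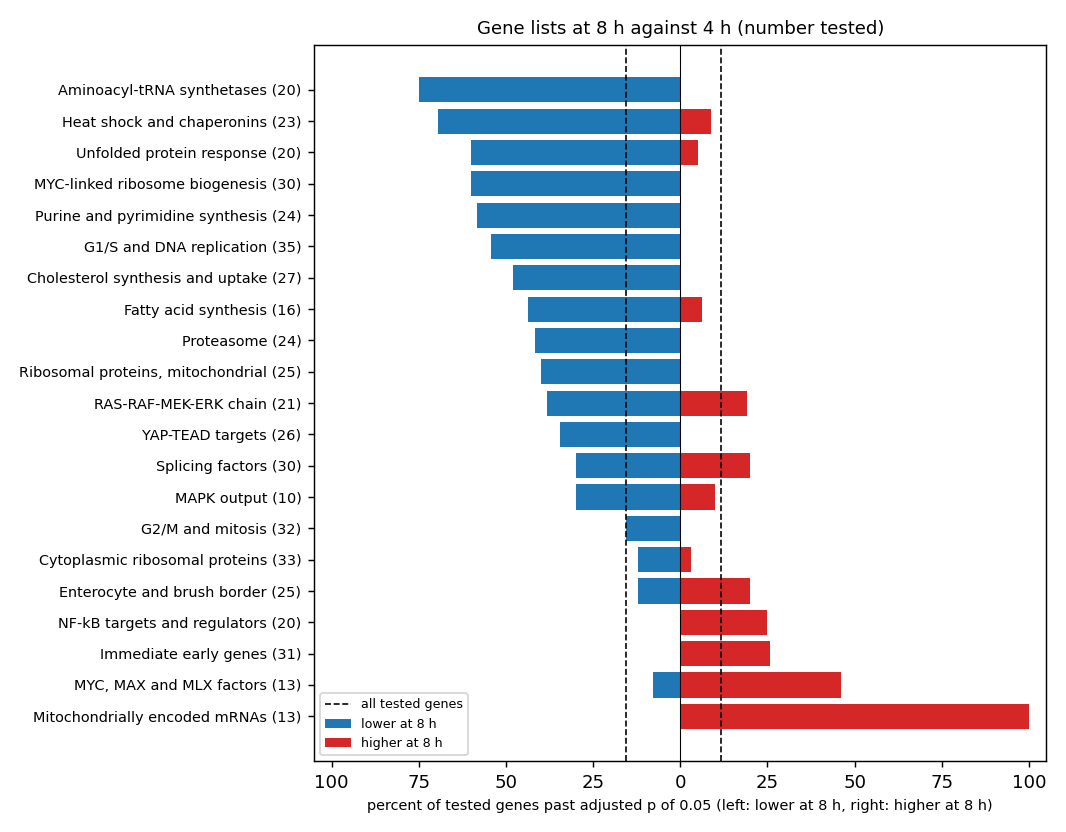
Share (percent) of the tested genes of each list that were lower (blue, to the left) or higher (red, to the right) at 8 h than at 4 h at an adjusted p under 0.05, with the number tested in brackets. Dashed lines mark the shares among all tested genes, 15.5% lower and 11.6% higher. Aminoacyl-tRNA synthetases reach 75% lower, and mitochondrially encoded mRNAs 100% higher.

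Of 33 cytoplasmic ribosomal protein genes, 4 were lower and 1 was higher, shares under those of all tested genes. The 4 became 1 without 8 h tumor 3 and 2 without 4 h tumor 1, 3 or 4 or 8 h tumor 4. With the trend removed 6 were lower and 1 was higher, against 2057 and 1444 of all 18242 tested genes. Of 25 mitochondrial ribosomal protein genes, 10 were lower (40%, against 15.5% of all tested genes) and none was higher. The 10 became 14 with the trend removed and 6 without 4 h tumor 4, 8 h tumor 3 or 8 h tumor 4. MRPL3 of the large mitochondrial subunit was at 49.8, 51.01, 51.7 and 59.9 CPM at 4 h and 30.4, 21.6, 18.5 and 20.2 CPM at 8 h, and fell by 1.23 ± 0.17 (adjusted p = 0.000724), while MRPS34 of the small subunit gave -0.03 ± 0.13 (adjusted p = 0.885).

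Most tested genes of the unfolded protein response (12 of 20) were lower at 8 h. This response acts in the endoplasmic reticulum, where secreted proteins fold. It raises chaperones when folding is overloaded, through the factors ATF6 and XBP1, which act at a promoter motif that consists of CCAAT, a spacer of 9 bases and CCACG. HSPA5, the main chaperone of that compartment (BiP) and described here outside the naming rule for its promoter, shows the motif in capitals in the 250 bases before its RefSeq start (GRCh38.p14, chr9:125241344-125241593, minus strand), 5′ to 3′:
HSPA5: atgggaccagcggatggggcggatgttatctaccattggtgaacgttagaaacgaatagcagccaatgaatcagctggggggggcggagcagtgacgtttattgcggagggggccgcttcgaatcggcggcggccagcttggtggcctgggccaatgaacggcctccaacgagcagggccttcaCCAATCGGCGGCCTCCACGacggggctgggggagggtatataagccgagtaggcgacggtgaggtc

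Of 20 genes of the unfolded protein response, 12 were lower (60%) and 1 was higher (5%), against 15.5% and 11.6% of all tested genes. The counts were 11 and 0 with the trend removed, and 10 to 12 were lower with 1 tumor left out. CANX (ENSG00000127022.16, chr5:179678628-179730925, plus strand), a chaperone of glycoproteins, was at 645, 879, 953 and 888 CPM at 4 h and 435, 364, 316 and 328 CPM at 8 h. The groups stood apart, and CANX fell by 1.22 ± 0.22 (adjusted p = 0.00126). HYOU1, a co-chaperone of the same compartment, fell by 0.99 ± 0.19 (adjusted p = 0.00148). HSPA5 was at 491, 1029, 454 and 574 CPM at 4 h and 391, 329, 258 and 373 CPM at 8 h, and fell by 0.92 ± 0.24 (adjusted p = 0.00789), and without 4 h tumor 2 its fold change was -0.59 with an adjusted p of 0.0538. XBP1 fell by 0.61 ± 0.22 (adjusted p = 0.0465), a call lost on leaving out any of 7 of the 8 tumors. CALR did not pass (-0.23 ± 0.15, adjusted p = 0.248), and SYVN1, a ubiquitin ligase for misfolded proteins, rose by 0.40 ± 0.13 (adjusted p = 0.0226) on counts but lay at -0.13 on log2(TPM + 1).

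The motif, on either strand, was present before 4 of the 12 lower genes with a RefSeq promoter (HSPA5, HSP90B1, XBP1 and CANX) and before 14 of 12135 tested genes with one (0.1%). CCAAT alone, which the motif contains, was present before 10 of these 12 and before 34.5% of tested genes. The list was made of known genes of this response, and its members that were not lower were not counted apart. These shares therefore cannot tie the motif to the fall at 8 h.

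Of 23 heat shock proteins and chaperonins, 16 were lower (69.6%) and 2 were higher (8.7%), against 15.5% and 11.6% of all tested genes. The counts were 10 and 0 with the trend removed, 9 lower without 4 h tumor 2 and 10 without 8 h tumor 3. The list's means in log2 CPM were 7.75 (vehicle), 7.32 (2 h), 7.56 (4 h), 7.06 (8 h) and 7.18 (24 h), so 2 h lay below 4 h here too. HSPD1, the mitochondrial chaperonin, was at 494, 467, 481 and 558 CPM at 4 h and 296, 283, 205 and 236 CPM at 8 h and fell by 0.97 ± 0.15 (adjusted p = 0.000821). HSP90AB1, the constitutive cytosolic HSP90, fell by 0.92 ± 0.17 (adjusted p = 0.00129), and the 6 listed subunits of the chaperonin that folds actin and tubulin were lower, CCT2 (-1.03), CCT3 (-0.83), CCT5 (-0.96), CCT7 (-0.71), CCT8 (-0.71) and TCP1 (-0.64). The small heat shock protein HSPB1 moved the other way, from 501, 572, 488 and 476 CPM at 4 h to 874, 1171, 1187 and 975 CPM at 8 h (1.05 ± 0.22, adjusted p = 0.00243). With the trend removed HSPB1 was at 0.51 (adjusted p = 0.0557). The stress-inducible HSPA1A did not pass (0.02 ± 0.23, adjusted p = 0.952). Of 24 proteasome genes 10 were lower (41.7%, against 15.5% of all tested genes). The 10 became 3 without 4 h tumor 2 and 2 without 4 h tumor 4 or 8 h tumor 3. PSME3, an activator of the proteasome, kept its call in each case (-1.07 ± 0.20, adjusted p = 0.00161). The proteasome list's means were 6.55 (vehicle), 6.29 (2 h), 6.66 (4 h) and 6.26 (8 h).

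**Figure D5:**
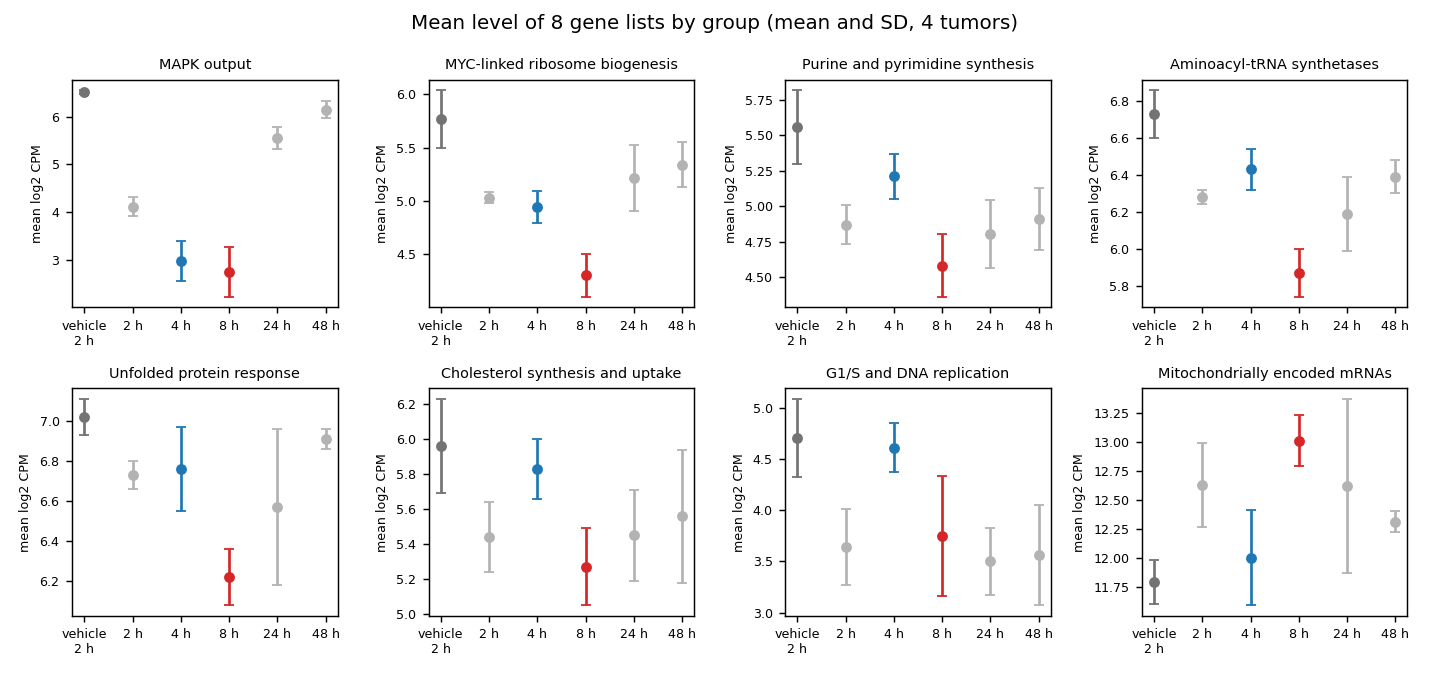
Mean log2 CPM over the tested genes of 8 lists in each group (point, mean of 4 tumors; bar, SD; blue, 4 h; red, 8 h; dark grey, vehicle; light grey, the other IK-595 times). The ERK output list is near its lowest level in both the blue and the red group, ribosome biogenesis, aminoacyl-tRNA synthetases and the unfolded protein response are lowest at 8 h, and in G1/S genes the blue point lies near vehicle and the red point near the other IK-595 times.

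Of the genes of the G1/S transition and of DNA replication, 19 of 35 were lower at 8 h. E2F factors switch these genes on when cyclin-dependent kinases release them from the RB proteins, at promoter motifs that include TTCCCGC and TTTGGCG. The 250 bases before the RefSeq starts (GRCh38.p14, 5′ to 3′) of 3 of the lower genes carry these motifs on either strand, in capitals: POLA1 at chrX:24693668-24693917 on the plus strand, RRM1 at chr11:4094435-4094684 on the plus strand and MCM6 at chr2:135876444-135876693 on the minus strand.
POLA1: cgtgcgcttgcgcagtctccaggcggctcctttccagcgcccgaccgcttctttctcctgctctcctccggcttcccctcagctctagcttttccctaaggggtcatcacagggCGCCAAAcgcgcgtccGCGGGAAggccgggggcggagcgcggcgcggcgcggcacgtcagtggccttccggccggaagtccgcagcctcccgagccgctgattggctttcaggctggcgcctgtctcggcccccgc
RRM1: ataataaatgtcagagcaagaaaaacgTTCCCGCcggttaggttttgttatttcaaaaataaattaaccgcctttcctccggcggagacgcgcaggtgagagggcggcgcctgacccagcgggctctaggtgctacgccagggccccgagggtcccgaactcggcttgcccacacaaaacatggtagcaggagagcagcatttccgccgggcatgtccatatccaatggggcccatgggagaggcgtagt
MCM6: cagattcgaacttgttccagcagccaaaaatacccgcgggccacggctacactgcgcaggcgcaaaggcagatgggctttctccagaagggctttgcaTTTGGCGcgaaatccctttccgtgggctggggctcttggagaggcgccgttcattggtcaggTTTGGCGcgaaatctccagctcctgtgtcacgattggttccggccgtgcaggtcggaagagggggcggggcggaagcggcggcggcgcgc

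Of 35 tested G1/S genes, 19 were lower (54.3%, against 15.5% of all tested genes) and none was higher, with a median of -0.82. The 19 became 18 with the trend removed, 14 with upper-quartile scaling, 25 on log2(TPM + 1) and 11 without 8 h tumor 3. POLA1 (ENSG00000101868.13, chrX:24693919-24996986, plus strand), the catalytic subunit of the polymerase that starts DNA strands, was at 13.4, 22.8, 14.5 and 17.01 CPM at 4 h and 7.58, 6.71, 5.29 and 6.997 CPM at 8 h. No 8 h tumor reached the 4 h range, and POLA1 fell by 1.34 ± 0.25 (adjusted p = 0.00148). RRM1, a subunit of ribonucleotide reductase, was at 74.5, 131, 73.03 and 98.1 CPM and then 49.6, 53.5, 24.2 and 39.7 CPM and fell by 1.17 ± 0.25 (adjusted p = 0.00303). MCM6, of the replicative helicase and named for its promoter, was at 55.5, 64.6, 46.5 and 66.7 CPM at 4 h and 29.98, 30.2, 11.1 and 26.1 CPM at 8 h (-1.26 ± 0.29, adjusted p = 0.00403). MCM7 of the same helicase did not pass (-0.40 ± 0.20, adjusted p = 0.133), and PCNA, the polymerase clamp, named for its promoter, fell by 0.70 ± 0.25 (adjusted p = 0.0435) but lost its call in 5 of the 8 fits without 1 tumor.

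The list's means in log2 CPM were 4.71 ± 0.38 (vehicle; SD, n = 4), 3.64 ± 0.37 (2 h), 4.61 ± 0.24 (4 h), 3.75 ± 0.59 (8 h) and 3.50 ± 0.33 (24 h). POLA1, for example, had means of 15.8 ± 2.85 CPM in vehicle, 7.17 ± 2.21 CPM at 2 h and 7.18 ± 1.66 CPM at 24 h. Vehicle and 4 h thus lay on one side and 2 h and 8 h on the other, as in the correlation with GC content apart from 2 h tumor 1. The 24 h tumors, with G1/S levels near those at 8 h, had correlations with GC content of -0.01, -0.02 and 0.07 in tumors 2 to 4 and 0.19 in tumor 1. The part of RNA composition in these levels was not tested.

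TTCCCGC was present before 7 of 16 lower G1/S genes with a RefSeq promoter and before 8.4% of tested genes, and TTTGGCG before 4 of 16 and 2.3%. The motif CACGTG, which MYC and MAX bind, was present before 2 of 17 lower genes of ribosome biogenesis, before 3 of 11 of nucleotide synthesis (PPAT, ATIC and MTHFD1) and before 8.5% of tested genes. A match describes the letters of these windows and is not evidence that a factor bound them. These lists, too, were made of genes known for their pathway, and members that were not lower were not counted apart. The shares therefore cannot tie a motif to the fall at 8 h.

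Genes of mitosis were read beside these. Of 32 G2/M genes, 5 were lower (15.6%, near the share among all tested genes) and none was higher. Their median was nevertheless -0.65, against -0.01 over all genes tested. The list's means in log2 CPM were 4.84 ± 0.25 (SD, n = 4) at 4 h and 4.15 ± 0.78 at 8 h. On log2(TPM + 1), 12 of the 32 were lower. The 5 became 0 without 4 h tumor 4 or 8 h tumor 3, 2 without 4 h tumor 2 or 8 h tumor 4, 3 without 4 h tumor 3 and 1 with the trend removed. CCNA2, cyclin A2, was at 21.1, 31.6, 22 and 29.4 CPM at 4 h and 16.3, 14.03, 6.895 and 12.5 CPM at 8 h (-1.06 ± 0.33, adjusted p = 0.0228). MKI67, the proliferation marker Ki-67, was at 155, 101, 147 and 199.7 CPM at 4 h and 92.3, 97.7, 25.1 and 82.1 CPM at 8 h. Although the groups did not overlap, its fold change of -1.02 ± 0.39 missed the threshold (adjusted p = 0.0602), with 8 h tumor 3 far below the others. Of 16 G1 cyclin and CDK inhibitor genes, 5 were lower (31.2%, against 15.5% of all tested genes). Among them was RBL1, the RB-like protein p107 (-1.15 ± 0.23, adjusted p = 0.00191).

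Genes of lipid synthesis were lower at 8 h in part. Of 27 genes of cholesterol synthesis and uptake, which SREBP factors control, 13 were lower (48.1%, against 15.5% of all tested genes) and none was higher. The 13 became 11 with the trend removed, 8 with upper-quartile scaling and 16 on log2(TPM + 1). Without 4 h tumor 4 or 8 h tumor 3 they became 6. IDI1 (ENSG00000067064.12, chr10:1039152-1049170, minus strand), an isomerase of the pathway, was at 65.8, 77.9, 73.5 and 93.8 CPM at 4 h and 35.3, 34.5, 22.8 and 28.9 CPM at 8 h. The groups did not overlap, and IDI1 fell by 1.36 ± 0.28 (adjusted p = 0.00221). The regulator SREBF2 itself did not pass (-0.26 ± 0.12, adjusted p = 0.103). The cholesterol list's means in log2 CPM were 5.96 (vehicle), 5.44 (2 h), 5.83 (4 h), 5.27 (8 h) and 5.45 (24 h). The 4 h mean thus lay near vehicle and the 2 h mean nearer to 8 h, as in the G1/S list. The part of RNA composition in these levels was not tested. Of 16 fatty acid synthesis genes 7 were lower (43.8%) and 1 was higher (6.2%), against 15.5% and 11.6% of all tested genes. The means of these 16 were 5.86 (vehicle), 5.45 (2 h), 5.87 (4 h), 5.30 (8 h) and 5.47 (24 h). ACSL4, which activates polyunsaturated fatty acids, fell by 1.31 ± 0.27 (adjusted p = 0.00223), and ELOVL6, which lengthens fatty acids, by 1.02 ± 0.22 (adjusted p = 0.00315).

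Mitochondrially encoded mRNAs were higher at 8 h, each of the 13 tested. These mRNAs are part of the mitochondrial share of counts given above as a library measure, so their rise is not a separate result. The rises lay between 0.78 and 1.21, 9 of 13 were called with the trend removed, 6 without 4 h tumor 2, 7 without 8 h tumor 3 and 8 without 4 h tumor 4. MT-ND6, a subunit of complex I, was at 3219, 1620.0, 2706 and 2150.0 CPM at 4 h and 4627, 5791, 7333 and 4739 CPM at 8 h and rose by 1.21 ± 0.30 (adjusted p = 0.00669). MT-ND3 was at 1874, 990.3, 1627 and 1228 CPM and then 2602, 3061, 4000.0 and 2821 CPM (1.13 ± 0.28, adjusted p = 0.00647). The list's means in log2 CPM were 11.79 (vehicle), 12.63 (2 h), 12 (4 h), 13.01 (8 h), 12.62 (24 h) and 12.31 (48 h). Of the 28 nuclear-encoded respiratory chain genes, 4 were higher (2 without 4 h tumor 2) and 6 were lower. These shares (14.3% and 21.4%) were near those of all tested genes (11.6% and 15.5%). The counts were 7 and 5 under upper-quartile scaling and 0 and 11 on log2(TPM + 1). Of 23 glycolysis genes, 8 were lower (34.8%, against 15.5% of all tested genes) and none was higher. PGAM1, a mutase of the pathway, fell by 0.98 ± 0.24 (adjusted p = 0.00592). SLC16A1, a lactate carrier, fell by 0.99 ± 0.21 (adjusted p = 0.00316), while GAPDH gave 0.21 ± 0.13 (adjusted p = 0.243).

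Lists of tumor cell identity and adhesion had shares of lower genes near that of all tested genes (15.5%): 18.5% for the classical pancreatic cancer subtype, 20% for epithelial-mesenchymal genes and 14.3% for epithelial identity. CEACAM6, an adhesion protein of the classical pancreatic cancer subtype, was at 848, 1181, 981 and 1027 CPM at 4 h and 349, 459.8, 299 and 371 CPM at 8 h. Every 8 h tumor lay far below every 4 h tumor, and CEACAM6 fell by 1.45 ± 0.22 (adjusted p = 0.000759). LYZ, lysozyme, which the classical subtype also expresses, fell by 0.99 ± 0.24 (adjusted p = 0.00519), and the count for that subtype was 5 lower and 0 higher of 27, with 3 lower without 8 h tumor 3. LGALS4, of the same subtype, did not pass (0.25 ± 0.13, adjusted p = 0.172). Of 25 epithelial-mesenchymal genes, 5 were lower and 1 was higher (2 lower without 4 h tumor 2, 3 without 4 h tumor 4 or 8 h tumor 3, and 2 and 0 with the trend removed). ITGA6, a laminin receptor, was at 240.1, 322, 269.6 and 315 CPM and then 141, 89.4, 85.3 and 73.3 CPM and fell by 1.56 ± 0.27 (adjusted p = 0.00126). VIM, vimentin, gave -0.23 ± 0.15 (adjusted p = 0.244), and the tight junction gene CLDN3 rose by 1.29 ± 0.29 (adjusted p = 0.00381), or 0.62 with the trend removed (adjusted p = 0.0766).

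YAP and TEAD respond to cell shape and contact. Of 26 of their targets and partners, 9 were lower (34.6%, against 15.5% of all tested genes) and none was higher. The 9 became 7 with the trend removed and 6 without 4 h tumor 2. MYOF, a membrane repair protein, fell from 967, 994, 1329 and 1161 CPM to 662, 629, 605 and 659 CPM (-0.80 ± 0.15, adjusted p = 0.00132), and AMOTL1, a binding partner of YAP, by 1.46 ± 0.33 (adjusted p = 0.00373). The YAP and TEAD list's means in log2 CPM were 5.49 (vehicle), 4.95 (2 h), 5.29 (4 h) and 4.81 (8 h). Of 25 genes of proteolysis and invasion 8 were lower (32%) and 1 was higher (4%), against 15.5% and 11.6% of all tested genes. PLAT, tissue plasminogen activator, fell by 1.42 ± 0.28 (adjusted p = 0.0018). Of 25 enterocyte and brush border genes, 5 were higher (20%) and 3 were lower (12%), against 11.6% and 15.5% of all tested genes. The 5 became 3 without 4 h tumor 2, 4 h tumor 4 or 8 h tumor 3, and the counts were 3 and 3 on log2(TPM + 1). CDHR5, a cadherin of microvilli, rose by 0.91 ± 0.18 (adjusted p = 0.00191) and MYO7B, a microvillar myosin, by 0.72 ± 0.18 (adjusted p = 0.00776), whereas EZR, ezrin (-0.73 ± 0.16), and DPP4, a brush border peptidase (-1.06 ± 0.29), fell with adjusted p of 0.00349 and 0.0115. MUC17, a membrane mucin, was at 1933, 2240.0, 3350.0 and 2306 CPM at 4 h and 1282, 1127, 1046 and 982 CPM at 8 h and fell by 1.15 ± 0.29 (adjusted p = 0.00661), while MUC13 gave 0.53 ± 0.33 (adjusted p = 0.234).

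Apoptosis is set by the BCL2 family. Of 16 BCL2-family genes, 3 were higher (BIK, BBC3 and BAD; 18.8%, against 11.6% of all tested genes) and none was lower. The counts were 1 and 1 with the trend removed and 1 higher and 4 lower on log2(TPM + 1). Of all 18242 tested genes, 1444 were higher and 2057 lower with the trend removed, and 807 and 4002 on log2(TPM + 1). BIK, which promotes apoptosis, was at 14.4, 9.86, 14.3 and 11.2 CPM at 4 h and 23.6, 20.4, 26.8 and 25.7 CPM at 8 h, a rise of 0.95 ± 0.20 (adjusted p = 0.00222). BBC3, which encodes PUMA, rose by 0.80 ± 0.17 (adjusted p = 0.00307), but with the trend removed it was at 0.19 (adjusted p = 0.348). MCL1, a survival protein, did not pass (-0.19 ± 0.17, adjusted p = 0.426).

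Markers of host cells were measured beside these groups. Of 19 fibroblast and pericyte markers, 2 were lower (10.5%, against 15.5% of all tested genes) and none was higher. The 2 became 7 without 4 h tumor 1, 5 without 4 h tumor 3 and 1 without 8 h tumor 4. They became 0 without 4 h tumor 2 or 8 h tumor 1, 2 or 3. COL1A1, the main collagen of fibroblasts, was at 677, 16230.0, 324 and 1135 CPM at 4 h and 1262, 1202, 733 and 2689 CPM at 8 h (-1.64 ± 0.90, adjusted p = 0.181), with 4 h tumor 2 far above the rest. The sum of 13 endothelial markers was 29.7 to 162 CPM at 4 h and 33.8 to 90.0 CPM at 8 h. Of 9 tested myeloid markers 1 was lower (LYZ, also in the tumor list), and S100A8 and ADGRE1 had no counts in these 8 tumors. Of 14 lymphocyte markers none was high enough to test, and 6 had no counts in these 8 tumors. Of 12 adipocyte, muscle and red cell markers 2 were higher (16.7%, against 11.6% of all tested genes). The sum of this list was highest in 4 h tumor 4 (3174 CPM) and 8 h tumor 2 (4238 CPM). The part of host cells in the other lists was not tested beyond the fits without 4 h tumor 2.

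By gene class, 367 of 2452 long noncoding RNAs were higher (15%) and 38 were lower (1.5%). Of 14125 protein-coding genes 1555 were higher (11%) and 2762 were lower (19.6%). Among all tested genes the shares were 11.6% and 15.5%. NEAT1, a nuclear noncoding RNA, was at 1070 to 1839 CPM at 4 h and 2729 to 5330 CPM at 8 h, and rose by 1.27 ± 0.27 (adjusted p = 0.00291). MALAT1 rose by 1.42 ± 0.34 (adjusted p = 0.00578). Both were named after their values were seen. In the fifth of genes with the lowest GC content, 29% were lower and 4.6% were higher, and in the fifth with the highest GC content 2.5% were lower and 26.3% were higher. Median fold changes over the 5 GC classes ran from -0.28 to 0.35, and from -0.07 to 0.00 with the trend removed.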

How the data were processed

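Poly(A) RNA of 24 tumors was sequenced, and 8 of them were compared (4 at 8 h and 4 at 4 h after the last dose), with groups read from the sample titles because the time tag of treated samples names a vehicle dose. The deposited values were estimated counts per gene from Salmon 0.14.1, per the submitters' processing notes, which also name bcl2fastq 2.17, FastQC 0.12.1 and GRCh38.p13. The authors also deposited TPM values of the same genes. The sequence of these tools, the annotation, strandedness and how mouse reads were treated were not given in the sources used here, so overlapping and antisense genes may share reads.

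Estimated counts, of which 59.6% of those above 0 were whole within 0.0015, were rounded to whole numbers. Genes were filtered with edgeR's filterByExpr, which kept 18242 genes and 99.9% of counts, scaled by TMM and tested with edgeR 4.0.16 (R 4.3.3, robust quasi-likelihood test, all 24 tumors in 1 fit, Benjamini-Hochberg adjustment over all genes tested, threshold 0.05). log2 CPM used a prior count of 2. Depth was 10.52 to 20.6 M counts, and the median SE of a log2 fold change was 0.23. Every fold change, SE and adjusted p in the text is from edgeR unless another tool is named. Each p-value sets the difference between 2 groups against the spread between tumors within groups, estimated from all 24 tumors. Coordinates are those of GENCODE release 29 on GRCh38, which held 57972 of 60230 gene IDs. Promoters (250 bases before the RefSeq start, GRCh38.p14) were searched on both strands for 5 motifs, which are spelled out beside the results.

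The genes compared and the gene lists were chosen with earlier results of these data known. Named genes were the 10 ERK output genes, the 12 largest rises and 12 largest falls (adjusted p under 0.05, also with each of the 8 tumors left out, no overlap, mean log2 CPM of at least 3), and from each list up to 2 called genes per direction, ordered by adjusted p, and 1 uncalled gene, that of the highest expression. Other genes were named after their values were seen, among them MYC, MALAT1, NEAT1, HSPA5, XBP1, PCNA and MCM6. Alternatives were RLE and upper-quartile scaling, DESeq2 1.42.0, limma 3.58.1 (voom, and log2(TPM + 1) or log2(TPM + 0.1)), other filters, the 8 tumors alone, a replicate block and each tumor left out. Removal of a GC and length trend (spline with 5 degrees of freedom) and protein-coding genes alone were added after the data had been seen. The scripts were tested on simulated data. Results for some genes that the rule names are not reported here.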

Additional observations from a re-analysis of the deposited data

Results flagged for a closer look

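Of 268 groups of 4 tumors examined, 16 (6%) held a tumor whose distance to the nearest other tumor, divided by the range of its group, was above Dixon's critical value for 4 samples, and chance alone gives about 1 in 20. At 8 h, tumor 3 was the distant one in 8 of them. It was low in DTL (1.463 CPM, others 8.638 to 10.71), MKI67 (25.07 CPM, others 82.06 to 97.72), RBL1 (5.433 CPM, others 10.37 to 11.39) and MCM6 (11.14 CPM, others 26.09 to 30.16), all genes of the cell cycle or DNA replication. It was also low in EZR (599.2 CPM, others 758.7 to 781.9) and SRSF3 (120.6 CPM, others 145.8 to 150.3), and high in MUC13 (1674 CPM, others 949.9 to 1010) and ERBB3 (617.7 CPM, others 492.9 to 511.1).

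At 4 h, tumor 2 was high in DUSP4 (8.039 CPM, others 3.112 to 3.599), DUSP6 (9.762 CPM, others 2.843 to 3.427), MAPK3 (144.9 CPM, others 111.8 to 113.9) and HSP90B1 (1319 CPM, others 870 to 922.8). It is the tumor with the highest fibroblast marker sum and the fewest counts, and the part of host cells in these values was not tested. Tumor 3 at 4 h was low in CCND1 (46.08 CPM, others 67.66 to 68.73) and high in MUC13 (1115 CPM, others 677 to 705.3). Tumor 4 at 4 h had the highest sum of adipocyte, muscle and red cell markers (3174 CPM, others 433.1 to 508). At 8 h, tumor 1 was high in EPHA2 (36.18 CPM, others 19.35 to 20.21).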

How the results depend on the processing

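The counts of 2114 higher and 2834 lower genes became 1291 higher without a filter on low counts, 1363 higher and 1877 lower with only the 8 compared tumors, and 807 and 776 higher on log2(TPM + 1) and log2(TPM + 0.1). With 1 tumor left out they ranged from 1123 to 2259 higher and from 1961 to 2942 lower, with 1123 higher without 8 h tumor 3 and 1340 without 4 h tumor 4. A replicate block gave 1892 higher and 2552 lower genes. Same-numbered tumors at 4 h and 8 h correlated at -0.006, 0.134, 0.503 and 0.045, with 2 of 4 pairs over 0.1, so the numbers were not taken to pair the tumors, and the block ended the calls of 2 of the named genes. Settings added after the data had been seen gave 1444 higher and 2057 lower genes (GC and length trend removed) and 1990 and 2417 (protein-coding genes alone). The ERK output difference of -0.22 ranged from -0.48 to -0.022 with 1 tumor left out. Of 125 genes with values in the text or reviewed for it, 99 passed the threshold and 76 of these passed it under every alternative run. SYVN1 reversed, from 0.40 to -0.126 on log2(TPM + 1) and -0.131 on log2(TPM + 0.1), and the cause was not tested. Of 48 list counts of at least 3, 37 moved by over 1.5 times under at least 1 alternative. Depth was lowest in 4 h tumor 2, at 10.52 M counts.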

Other observations

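Among all tested genes 11.6% were higher and 15.5% were lower, and most of the lists described here were near or under these shares. Of 30 splicing factors, 6 were higher (20%) and 9 were lower (30%), with 12 and 6 after removal of the GC and length trend and 2 and 11 on log2(TPM + 1). The 9 became 4 without 4 h tumor 2, and the 6 became 2 without 4 h tumor 4 or 8 h tumor 3. TRA2A, which activates exons, was at 161, 134, 139.9 and 119.5 CPM at 4 h and 193, 214, 272 and 239 CPM at 8 h and rose by 0.73 ± 0.15 (adjusted p = 0.0026). The splicing factor SRSF3 fell by 0.76 ± 0.14 (adjusted p = 0.00144). Of 24 targets of NRF2, the regulator of antioxidant genes, 3 were lower (12.5%) and 1 was higher (4.2%), with 6 and 0 after removal of the trend and 5 lower without 4 h tumor 1 or 3. TXNRD1, thioredoxin reductase, was at 380.4, 451, 456 and 479 CPM at 4 h and 202, 177, 146 and 149.9 CPM at 8 h, without overlap, and fell by 1.39 ± 0.23 (adjusted p = 0.00107). GCLC, which starts glutathione synthesis, fell by 0.72 ± 0.12 (adjusted p = 0.000946), while FTH1, the ferritin heavy chain, gave 0.28 ± 0.24 (adjusted p = 0.41).

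Of 39 interferon-stimulated genes 2 were higher (5.1%) and 4 were lower (10.3%). IRF7, an interferon regulatory factor, was at 43.3, 27.4, 47.8 and 31.9 CPM at 4 h and 74.9, 75.2, 81.2 and 91.6 CPM at 8 h and rose by 1.10 ± 0.24 (adjusted p = 0.00308). PSMB10, a subunit of the immunoproteasome, rose from 30.5, 25.7, 27.5 and 28.97 CPM to 45.7, 53.3, 73.8 and 58.2 CPM (1.04 ± 0.17, adjusted p = 0.00107), 1 of 2 higher (10%) among 20 genes of MHC class I presentation, of which 1 was lower (5%). Of 15 clock activators and PER and CRY repressors 2 were higher (13.3%) and 3 were lower (20%). The 3 became 1 without 4 h tumor 2 or 8 h tumor 2. The 2 higher became 0 without 4 h tumor 4, 8 h tumor 3 or 8 h tumor 4 and 1 without 4 h tumor 2. BMAL2, a partner of CLOCK, fell by 1.28 ± 0.27 (adjusted p = 0.00254). In a separate list of 10 genes of clock output, 1 was higher (10%) and 2 were lower (20%). Of these, the repressor NR1D2 was at 47.3, 57.2, 52.9 and 58 CPM at 4 h and 26.3, 30.5, 32.4 and 31.8 CPM at 8 h and fell by 0.83 ± 0.15 (adjusted p = 0.00126).

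Of 22 hypoxia genes 3 were higher and 3 were lower (13.6% each), and none kept its call with each tumor left out. The 3 higher became 0 without 8 h tumor 3, 5 without 8 h tumor 2 and 1 without 4 h tumor 1, 2 or 4 or 8 h tumor 1 or 4, and the 3 lower became 0 without 4 h tumor 2 and 1 without 8 h tumor 3. VEGFA, the angiogenic growth factor, rose from 464, 317, 511 and 293 CPM to 696, 609, 1060.0 and 810.2 CPM (adjusted p = 0.0126), and without 8 h tumor 3 its log2 fold change was 0.83 with an adjusted p of 0.0535. HIF1A, the hypoxia factor, was at 45.4, 228, 48.3 and 62.6 CPM at 4 h and 38.01, 41.6, 33.6 and 41.3 CPM at 8 h (-1.31 ± 0.39, adjusted p = 0.0175), and without 4 h tumor 2 its fold change was -0.44 with an adjusted p of 0.196. LOX, which crosslinks collagen, gave -2.69 ± 0.72 (adjusted p = 0.0107), and -1.27 with an adjusted p of 0.101 without that tumor.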
